A study of Mus musculus with 4 samples.

Results

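A set of 10 genes of cyclic nucleotide phosphodiesterases was followed in mouse hearts with and without the coactivator PIMT. They are *Pde1a*, *Pde1c*, *Pde2a*, *Pde3a*, *Pde3b*, *Pde4a*, *Pde4b*, *Pde4d*, *Pde5a* and *Pde7a*. They were chosen by name from the phosphodiesterase families known in heart muscle and vessels, and all 10 were found among the 23337 gene symbols of each library. PIMT, listed as *Tgs1*, is an RNA methyltransferase that also binds nuclear receptor coactivators. The controls were PIMT fl/fl mice, labelled wild type as well, in which exons 3 and 4 of both PIMT alleles lie between loxP sites. The csPIMT-/- mice carry the same floxed alleles together with a Cre transgene under the α-MyHC promoter, which is active in cardiomyocytes, so that other heart cells keep the gene. All mice were on the C57BL6/J strain and received no treatment. Hearts were taken at 2 and at 6 months of age. RNA of 5 hearts, male and female, was pooled in each of the 4 groups, and each pool gave 1 library of polyadenylated RNA. There were therefore no replicate libraries, and a difference between 2 libraries has no replicate check. No Cre-only control was analysed here.

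Phosphodiesterases split the second messengers cAMP and cGMP and so end the signals that adenylyl and guanylyl cyclases start. In cardiomyocytes cAMP, acting through protein kinase A, strengthens and speeds contraction, and phosphodiesterases bound to single channels and pumps keep that signal local. In vessels and cardiomyocytes cGMP acts through protein kinase G. The families differ in substrate and regulation. PDE1 enzymes are switched on by calcium and calmodulin and split both messengers. PDE2 splits both and is stimulated by cGMP. PDE3 splits cAMP and is inhibited by cGMP. PDE4 and PDE7 are specific for cAMP, and PDE5, the target of sildenafil, for cGMP.

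The members printed below share a metal-binding signature in the catalytic domain, a histidine and an aspartate side by side, followed by a second histidine and an asparagine at fixed distances. The stretches below, read from the longest open reading frame of the GENCODE M21 transcripts, show that shared core next to members whose RNA levels differed widely between the groups. Each is 60 bases long, and capitals mark the codons of these 4 residues.
Pde1a: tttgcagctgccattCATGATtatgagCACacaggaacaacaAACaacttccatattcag
Pde1c: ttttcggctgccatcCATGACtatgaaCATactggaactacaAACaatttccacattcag
Pde2a: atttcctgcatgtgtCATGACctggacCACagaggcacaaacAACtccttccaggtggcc
Pde3a: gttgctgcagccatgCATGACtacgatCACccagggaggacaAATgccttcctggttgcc
Pde3b: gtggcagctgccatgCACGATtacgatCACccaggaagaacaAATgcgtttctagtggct
Pde4a: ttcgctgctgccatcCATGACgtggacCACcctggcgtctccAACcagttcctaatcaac
Pde4b: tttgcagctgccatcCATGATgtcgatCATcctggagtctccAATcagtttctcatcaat
Pde4d: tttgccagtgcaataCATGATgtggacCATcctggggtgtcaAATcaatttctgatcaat
Pde5a: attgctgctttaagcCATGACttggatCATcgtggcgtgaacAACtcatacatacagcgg

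In *Pde7a* no match to this signature was found in the reading frame. The search took only asparagine at the last position, and variants of the signature were not searched for. *Pde1a* and *Pde1c* were identical at 83.3% of the 60 bases, the most of any pair, and *Pde2a* and *Pde4b* at 36.7%, the fewest. No 50-base window, the length of a read, of the longest transcript of any of the 10 members matched another member exactly. Windows with mismatches, or found only in shorter transcripts of both genes, were not compared. *Pde3a* shared 5.84% of its windows with genes outside the family, *Pde5a* 0.357% and *Pde7a* 0.032%. *Pde2a* shared 90% with *Gm45837*, an annotated read-through transcript that is not a row of the files. Antisense genes overlapped exons of *Pde3a*, *Pde5a* and *Pde7a*. The library kit keeps strand, but the strand setting of the counting is not given in the sources used here, so reads of these partners may be included.

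The libraries held 39854713 and 40705783 reads on genes in the 2- and 6-month controls, and 29823073 and 36172093 in the csPIMT-/- hearts. The unit is the deposited normalized count, which is the reads of a gene divided by a size factor for its library. *Tgs1* was at 579.7 and 816.2 in the controls of 2 and 6 months and at 160.3 and 162.3 in the csPIMT-/- hearts. Both csPIMT-/- pools were below both controls, the direction that the genotype labels give. The count takes in the exons that are not removed. The 6 cardiomyocyte markers were abundant in every library, with sums of 986975 to 1325869. The 2-month control stood apart by its low atrial markers. The 5 atrial markers summed to 40742 in it, against 121253 in the 6-month control and 334131 and 349424 in the csPIMT-/- pools of 2 and 6 months. Without *Nppa*, which failing ventricles also make, the other 4 summed to 2560, 50594, 132951 and 29128 in the same order. The 6 fat markers summed to 1908, 3867, 16403 and 4643, and without *Cidea* to 19, 2852, 13842 and 2043. Lung markers summed to 2, 9, 1187 and 19, so the fat and lung sums were highest in the 2-month csPIMT-/- pool. *Xist*, made in female cells, was at 804.7 in the 2-month control, against 25638.6 in the other control and 6369.2 and 12855.7 in the csPIMT-/- pools. The Y-linked *Uty* was at 2254.1, 299.9, 87.5 and 170.6 in the same order, so the 2-month control differed in the balance of the sexes. In both csPIMT-/- pools *Xist* and *Uty* were each below the 6-month control, so the balance among these pools cannot be read from them. The part of these differences in the values below was not tested. For that reason the ratio of each member is also given against the control of the other age. Every 2-month ratio still holds the 2-month csPIMT-/- pool with its fat and lung RNA.

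Most members were lower in csPIMT-/- hearts. In heart tissue fewer cells of a type and less RNA per cell cannot be told apart. At 2 months the ratio of csPIMT-/- to control was below 1 for 8 of the 10, and at 6 months for 9, whereas 50.1% and 49.9% of all genes were below 1. The median ratio of the members was 0.646 at 2 months and 0.541 at 6 months, against 0.999 and 1 over all genes. More than 2-fold lower at 2 months were 2 members, *Pde1c* and *Pde4b*, where 22.5% of the genes compared were. At 6 months 4 were, *Pde1c*, *Pde4b*, *Pde5a* and *Pde7a*, where 24.9% of genes were. None was more than 2-fold higher, as were 17.3% of genes at 2 months and 16.9% at 6 months. *Pde1c* and *Pde4b* were past 2-fold lower at both ages, a pattern of 16% of genes, and no member was past 2-fold higher at both, a pattern of 7.73%. In 8 members both csPIMT-/- libraries lay below both controls, which 35.1% of genes did. In 1, *Pde2a*, both lay above, as in 34.6% of genes.

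**Figure D1:**
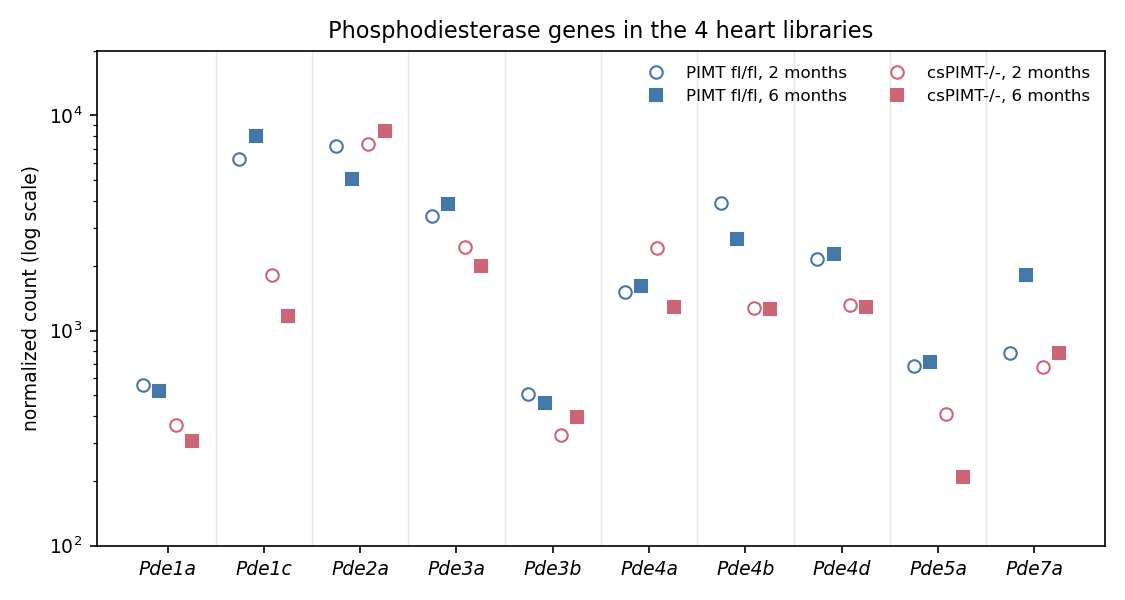
Normalized count (log axis) of each of the 10 phosphodiesterase genes in the 4 libraries, with controls in blue, csPIMT-/- hearts in red, 2 months as open circles and 6 months as filled squares; each point is 1 library of 5 pooled hearts and there are no error bars. The red points lie below the blue for 8 genes, above for *Pde2a*, and on both sides for *Pde4a*.

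Ratios of all genes moved with the GC content of their transcripts. Spearman's rho between log2 ratio and GC content was 0.581 at 2 months and 0.607 at 6 months over the 90.7% and 90.6% of genes with a value, and -0.261 between the controls of 6 and 2 months. Genes share libraries and are not independent, so these are descriptions. Of the 10 members, 8 had a transcript GC content under the 49.9% median of all genes. With the GC trend of all genes subtracted, 5 members were below 1 at 2 months and 6 at 6 months, and the median ratios were 0.899 and 0.807. One member was then more than 2-fold lower at 2 months, *Pde4b*, as were 11.6% of genes, and 3 at 6 months, *Pde1c*, *Pde4a* and *Pde5a*, as were 13.2% of genes. The ratios of *Tgs1*, the deleted gene, moved from 0.276 and 0.199 at 2 and 6 months to 0.597 and 0.491. Subtracting the trend thus also shrank the difference of the deleted gene. Whether the trend came from the libraries or from the hearts was not tested.

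**Figure D2:**
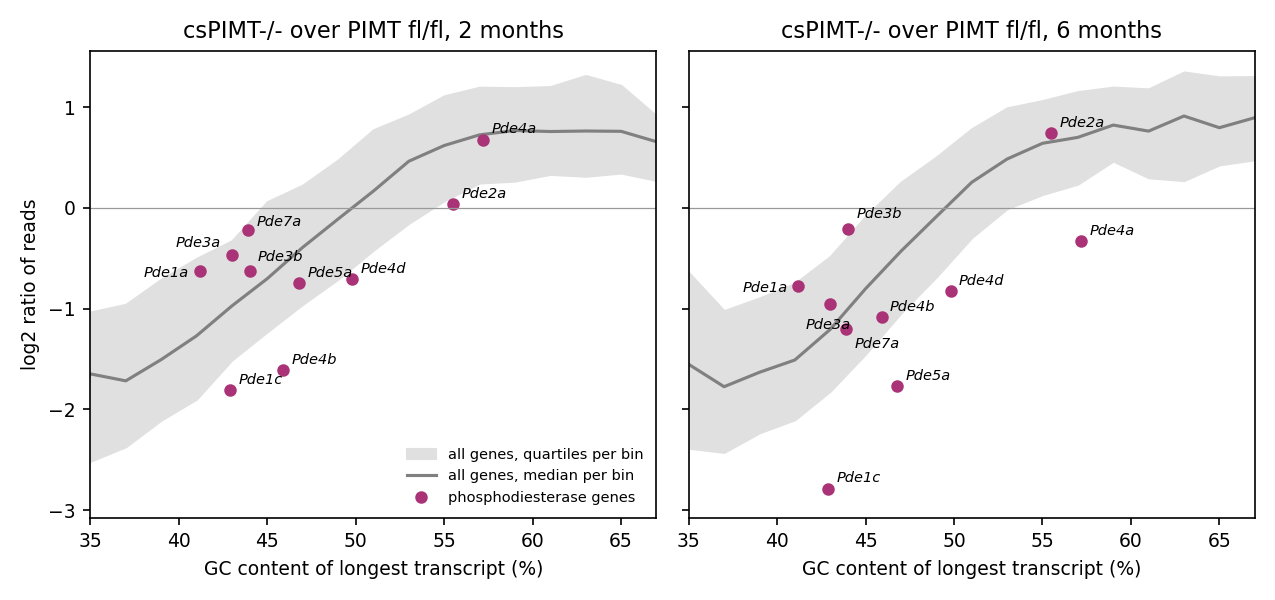
The log2 ratio of csPIMT-/- over PIMT fl/fl hearts against the GC content of each gene's longest transcript (percent), at 2 months (left) and 6 months (right); the grey line is the median of all genes in bins of 2 percentage points, the grey band their quartiles, and the points are the 10 phosphodiesterase genes. *Pde1c*, at 42.9% GC, lies well under the line at both ages, *Pde1a*, at 41.2%, lies above it at both, and *Pde4d*, at 49.8%, lies under it where the line crosses 0.

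The only test that the 4 libraries allow is a fit over both ages, limma on log2(normalized count + 1) with genotype and age and a single residual degree of freedom. Its differences are on that log2 scale, and adjusted p-values are Benjamini-Hochberg values over 14847 genes. Of the 10 members, 2 fell in csPIMT-/- hearts, *Pde1c* and *Pde4b*, where 17.5% of all genes tested fell. None rose, where 11% of all genes did. At an unadjusted p under 0.05 limma had 5 members lower, *Pde3a*, *Pde4d* and *Pde5a* as well, and 0 higher, where 24.7% of all genes were lower and 20.7% higher. Neither member passed, and no gene of the whole table did, after the GC trend was subtracted, when limma gave 3492 genes with an unadjusted p under 0.05. The same was true without the mean trend of the variance, with 5965 genes under an unadjusted p of 0.05. On reads recovered from the normalized counts, edgeR called 3 members lower, *Pde4d* as well, where it called 17% of all genes lower and 11% higher. DESeq2 called 3, *Pde5a* as well, where it called 21% of all genes lower and 15.4% higher. Neither tool called a member higher. The libraries are pools without replicates, so the residual is the difference of the genotype effect between the ages, moderated by a prior taken from all genes.

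*Pde1c* had the lowest ratio of the members at both ages before the GC trend was subtracted. It lies on the minus strand at chr6:56069804-56569103 (GRCm38) and encodes a calmodulin-stimulated enzyme that is abundant in cardiomyocytes. It was at 6308.9 and 8064.0 normalized counts in the controls of 2 and 6 months and at 1803.8 and 1168.3 in csPIMT-/- hearts. Both csPIMT-/- pools were far below both controls. The ratio was 0.286 at 2 months (95% interval 0.27 to 0.302) and 0.145 at 6 months (0.136 to 0.154). These intervals are Clopper-Pearson intervals and cover counting error only. Against the control of the other age the ratios were 0.224 and 0.185. In limma *Pde1c* fell by 2.30 on the log2 scale (SE 0.296, adjusted p = 0.0163), and it passed with each library left out in turn. With the GC trend subtracted the ratios were 0.563 and 0.327, and the fitted difference was -1.21 (adjusted p = 0.114). Its partner *Pde1a*, a calmodulin-stimulated enzyme better known from vascular smooth muscle (minus strand of chr2:79834453-80129458), was at 559.8 and 523.3 in controls and at 362.5 and 305.9 in csPIMT-/- hearts. Again the csPIMT-/- pools were both lower, by less. Its ratios were 0.647 (0.562 to 0.744) and 0.585 (0.507 to 0.673), and its log2 difference of -0.70 (SE 0.28, adjusted p = 0.117) did not pass limma. The ratios were 0.693 and 0.546 against the other control and 1.49 and 1.53 with the GC trend subtracted.

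The cAMP-specific PDE4 genes differed from one another. *Pde4b*, whose product sits at L-type calcium channels, lies on the plus strand at chr4:102087543-102607259. Its normalized counts were 3914.6 and 2660.4 in controls and 1278.5 and 1256.7 in csPIMT-/- hearts. Its controls differed by a ratio of 0.68 (0.649 to 0.712) between 6 and 2 months, while its csPIMT-/- pools were nearly level at 0.983. The ratio of csPIMT-/- to control was 0.327 (0.305 to 0.349) at 2 months and 0.472 (0.442 to 0.505) at 6 months. With the other control it was 0.481 and 0.321, and with the GC trend subtracted 0.482 and 0.74. It fell by 1.35 on the log2 scale in limma (SE 0.238, adjusted p = 0.0224). Without the 2-month control the adjusted p was 0.0809, without the 6-month csPIMT-/- library 0.0502, and with the GC trend subtracted 0.168.

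*Pde4d*, whose product is found with ryanodine receptors, spans chr13:108449948-109953461 on the plus strand. It was at 2149.4 and 2279.6 in controls and at 1316.8 and 1286.9 in csPIMT-/- hearts. The libraries of each genotype were close to each other and the genotypes did not overlap. Its ratios, 0.613 (0.57 to 0.658) and 0.565 (0.527 to 0.604), were 0.578 and 0.599 against the other control and 0.624 and 0.551 with the GC trend subtracted. The limma difference of -0.77 (SE 0.212) had an adjusted p of 0.0523, and edgeR gave 0.0499. *Pde4a* (plus strand, chr9:21165714-21213248) had no common direction. It was at 1507.3 and 1620.0 in controls, at 2411.6 in the 2-month csPIMT-/- pool and at 1291.1 in that of 6 months. The csPIMT-/- libraries lay on either side of the controls, and their ratio of 6 to 2 months was 0.535. The ratio was 1.6 (1.5 to 1.71) at 2 months and 0.797 (0.741 to 0.857) at 6 months, which became 1.49 and 0.857 against the other control and 1 and 0.491 with the GC trend subtracted. The difference between the ages could not be tested. The limma difference was 0.18 (SE 0.308, adjusted p = 0.685).

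The PDE3 genes encode the enzymes that milrinone blocks. *Pde3a*, the main cardiac form, lies on the plus strand at chr6:141249269-141507448. It was at 3402.4 and 3878.5 in controls and at 2453.5 and 2003.7 in csPIMT-/- hearts. Both csPIMT-/- pools were lower, with ratios of 0.721 (0.683 to 0.761) and 0.517 (0.489 to 0.545). They were 0.633 and 0.589 against the other control and 1.4 and 1.15 with the GC trend subtracted. The limma difference was -0.71 (SE 0.227, adjusted p = 0.071). *Pde3b*, better known for ending insulin-sensitive cAMP signals in fat cells, lies on the plus strand at chr7:114415281-114539251. It was at 504.5 and 458.2 in controls and at 325.5 and 397.4 in csPIMT-/- hearts. The ratios were 0.645 (0.556 to 0.747) and 0.867 (0.758 to 0.992), with 0.71 and 0.788 against the other control and 1.15 and 1.74 with the GC trend subtracted. The limma difference was -0.42 (SE 0.295, adjusted p = 0.32). *Pde3b* was lowest in the 2-month csPIMT-/- library, in which the fat markers were highest, at 16403, and their part in its values was not tested.

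*Pde5a* (plus strand, chr3:122728947-122859374) was the member with the second lowest ratio at 6 months. It was at 687.0 and 710.6 in controls and at 408.1 and 208.1 in csPIMT-/- hearts. The controls differed by a ratio of 1.03 (0.937 to 1.14), both csPIMT-/- pools were lower, and the older pool was lower than the younger at a ratio of 0.51. Against the control the ratio was 0.594 (0.521 to 0.676) at 2 months and 0.293 (0.25 to 0.342) at 6 months. Against the other control it was 0.574 and 0.303, and with the GC trend subtracted 0.798 and 0.404. The log2 difference was -1.26 (SE 0.356), with an adjusted p of 0.0547 in limma and of 0.0124 in DESeq2, and without the 6-month csPIMT-/- library it was -0.77 (adjusted p = 0.118 in limma). PDE5 is abundant in vascular smooth muscle. The 6 smooth muscle markers, none of them at 0 in any library, summed to 56889 and 42990 in controls and to 69286 and 32466 in csPIMT-/- hearts. At 2 months 3 of these 6, *Myh11*, *Tagln* and *Cnn1*, were more than 2-fold higher in the csPIMT-/- pool, as were 17.3% of all genes. None was more than 2-fold lower, as were 22.5%. *Acta2*, *Smtn* and *Mylk* had ratios of 0.922, 1.06 and 0.883. At 6 months none was past 2-fold, where 16.9% of all genes were higher and 24.9% lower. Between the controls, 6 over 2 months, *Tagln* was at 2.55 and *Cnn1* at 5. The part of the smooth muscle markers in the *Pde5a* values was not tested.

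*Pde2a* (plus strand, chr7:101421691-101512827), known from cardiomyocytes and endothelium, was the exception. Its normalized counts were 7177.6 and 5055.3 in controls and 7348.2 and 8447.7 in csPIMT-/- hearts. The 2-month pools were close, and the gap at 6 months held a low control and a high csPIMT-/- library. The ratio was 1.02 (0.99 to 1.06) at 2 months and 1.67 (1.62 to 1.73) at 6 months, and against the other control it was 1.45 and 1.18. It was 0.676 and 1.09 with the GC trend subtracted. In limma the difference was 0.39 (SE 0.252, adjusted p = 0.284). The 6 endothelial markers summed to 60168 and 43396 in controls and to 39858 and 43204 in csPIMT-/- hearts, and none was at 0. In limma 2 of them, *Kdr* and *Tek*, fell, where 17.5% of all genes tested fell, and none rose. At 6 months *Pecam1*, *Cdh5* and *Tie1* had ratios of 1.26, 1.28 and 1.55. Those of *Kdr*, *Tek* and *Emcn* were 0.56, 0.566 and 0.488. The part of these markers in the *Pde2a* values was not tested.

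*Pde7a* (minus strand, chr3:19223108-19311322), a cAMP-specific enzyme well known from lymphocytes, was at 790.0 and 1810.8 in controls and at 676.9 and 785.5 in csPIMT-/- hearts. The 6-month control was the high library, and the other 3 lay together. Its ratio was 0.857 (0.769 to 0.953) at 2 months and 0.434 (0.399 to 0.472) at 6 months. Against the other control the ratios were 0.374 and 0.994, and with the GC trend subtracted 1.53 and 0.873. The limma difference was -0.71 (SE 0.319, adjusted p = 0.148). The leukocyte marker *Ptprc*, named after its values were seen, was at 411.9 and 948.1 in controls and at 219.5 and 420.3 in csPIMT-/- hearts. Its ratios were 0.533 and 0.443, and 1.44 and 1.31 with the GC trend subtracted. The part of *Ptprc* in the *Pde7a* values was not tested. The 6 macrophage markers, *Ptprc* among them, summed to 8899 and 16126 in controls and to 15641 and 20596 in csPIMT-/- hearts, and none was at 0. At 2 months 3 of them were more than 2-fold higher in the csPIMT-/- pool and 0 lower, where 17.3% of all genes were higher and 22.5% lower. At 6 months 1, *Cd68*, was past 2-fold higher and 1, *Ptprc*, past 2-fold lower, where 16.9% of all genes were higher and 24.9% lower. Between the controls, 6 over 2 months, *Pde7a* was at 2.29 (2.12 to 2.48), the only member past 2-fold higher, where 9.01% of genes were. No member was past 2-fold lower between the controls, as 4.65% of genes were. Between the csPIMT-/- libraries no member was past 2-fold either way, where 8.2% of genes were lower and 9.71% higher at 6 months.

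**Figure D3:**
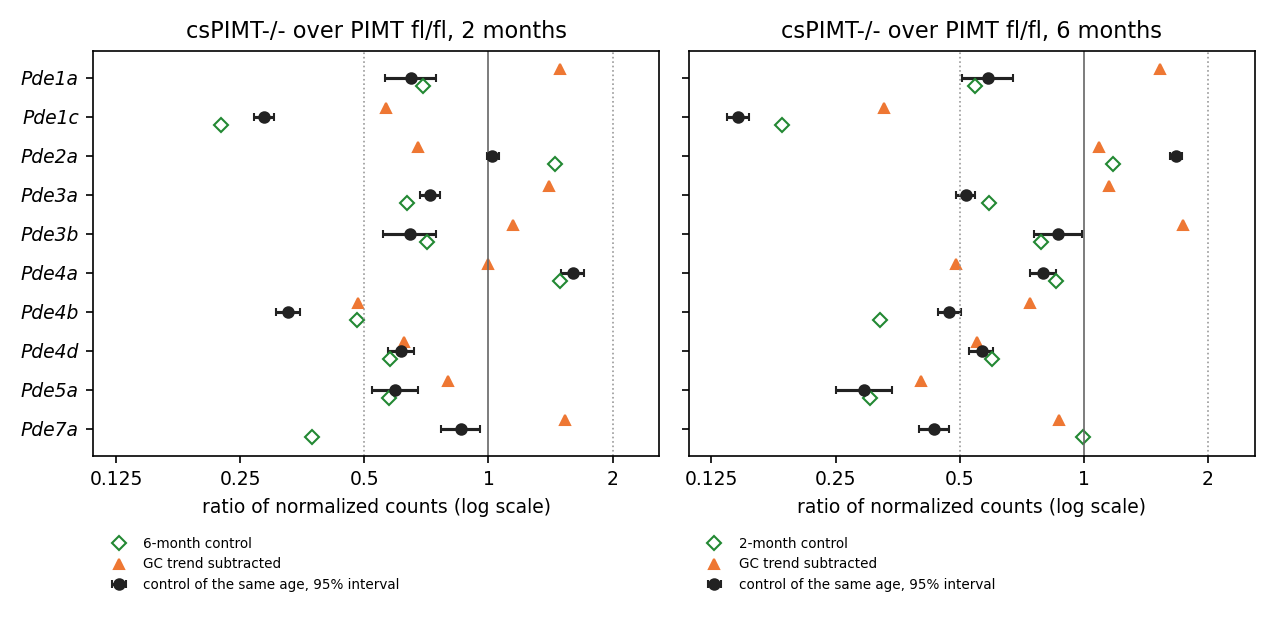
Ratio of normalized counts, csPIMT-/- over PIMT fl/fl (log axis), for each gene at 2 months (left) and 6 months (right); black points use the control of the same age with its 95% Clopper-Pearson interval of counting error, green diamonds the control of the other age and orange triangles the ratio with the GC trend of all genes subtracted, and dotted lines mark 2-fold. *Pde1c*, *Pde4b*, *Pde4d* and *Pde5a* are left of 1 in every version at both ages, while the orange triangles of *Pde1a*, *Pde3a* and *Pde3b* are right of 1 at both.

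Per kilobase of the longest transcript, which allows levels of different genes to be compared within a library, *Pde2a* ranked first in all 4 libraries. Its share of the summed level of the 10 members was 35% and 26.5% in the controls of 2 and 6 months and 48.8% and 57.9% in csPIMT-/- hearts. *Pde1c* ranked 3rd and 2nd in the controls, with 14.8% and 20.4%, and 5th and 6th in csPIMT-/- hearts, with 5.76% and 3.85%. *Pde4b* held 18.7% and 13.7% in controls and 8.32% and 8.44% in csPIMT-/- hearts, and *Pde4d* 10.5%, 12%, 8.76% and 8.84%. *Pde4a* held 6.66% and 7.71% in controls and 14.5% and 8.02% in csPIMT-/- hearts, and *Pde3a* between 4.71% and 6.98% in all. The other 4 members held at most 6.37% each. The summed level was 4870 and 4520 normalized counts per kilobase in controls and 3570 and 3460 in csPIMT-/- hearts. Levels and shares were not adjusted for GC content, which is 55.5% for *Pde2a* and 42.9% for *Pde1c*. With the GC trend subtracted the ratios of *Pde2a* were 0.676 and 1.09 at 2 and 6 months and those of *Pde1c* 0.563 and 0.327. The median ratios of the members were then 0.899 and 0.807. With 1 library a group the order of neighbours has no replicate check, and the longest transcript need not be the one the heart uses. With the length of all merged exons *Pde2a* stayed first, and *Pde1c* ranked 6th and 7th in csPIMT-/- hearts. *Pde3a* then held 9.49% and 11.6% in controls and 8.57% and 7.15% in csPIMT-/- hearts. *Pde4d* held 6.36% and 7.23% in controls and 4.88% and 4.87% in csPIMT-/- hearts. By this length *Pde3a* ranked above *Pde4d* in every library, the reverse of their order by longest transcript.

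**Figure D4:**
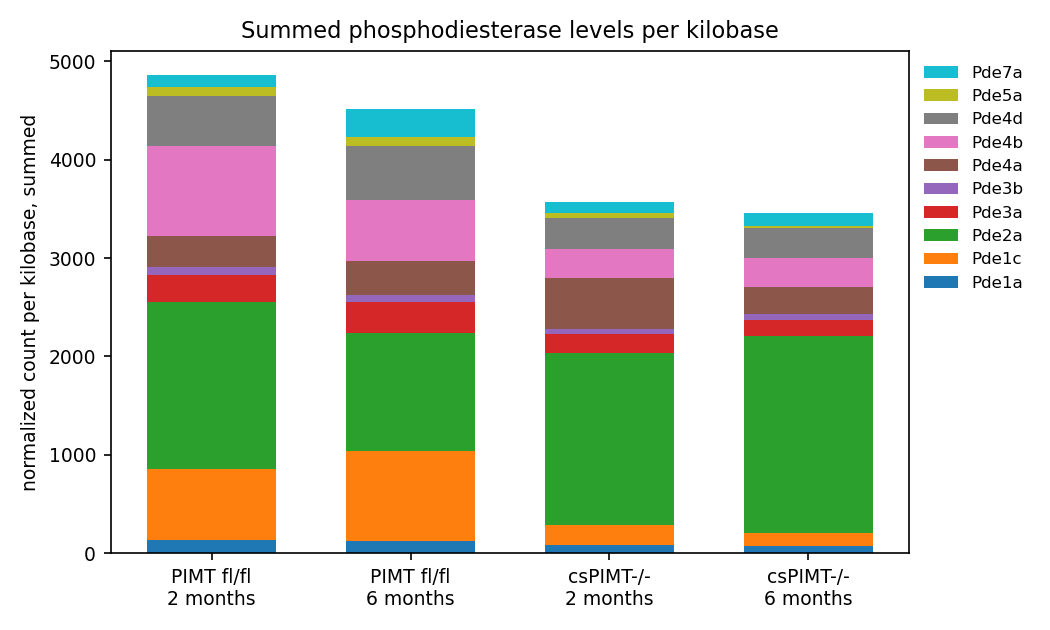
Normalized count per kilobase of the longest transcript, stacked over the 10 phosphodiesterase genes, for each library of 5 pooled hearts, without adjustment for GC content. The stack is 4870 and 4520 high in the controls and 3570 and 3460 in csPIMT-/- hearts, the orange block of *Pde1c* is 14.8% and 20.4% of it and then 5.76% and 3.85%, and the green block of *Pde2a* is the largest in each.

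Promoter sequences are shown for the 2 members that passed limma. The RefSeq table (GRCm38.p6) gives windows of 300 bases around annotated starts, 250 before and 50 after, for 7 of the 10 members and 21 windows in all, some of which overlap. *Pde3a*, *Pde3b* and *Pde7a* are not among them. The window listed first for each gene is printed on the strand of the gene, with capitals where a searched motif matched. Both printed windows lie inside the annotated span of their gene, away from its outer start. Which start the heart used was not tested. The motifs were the cAMP response element (TGACGTCA), its half-site (TGACG, which the full element contains) and the nuclear receptor half-site (AGGTCA), on both strands. The *Pde1c* window, at chr6:56362343-56362642 on the minus strand, holds none. The *Pde4b* window, at chr4:102421305-102421604 on the plus strand, holds the half-site TGACG on its other strand.
Pde1c: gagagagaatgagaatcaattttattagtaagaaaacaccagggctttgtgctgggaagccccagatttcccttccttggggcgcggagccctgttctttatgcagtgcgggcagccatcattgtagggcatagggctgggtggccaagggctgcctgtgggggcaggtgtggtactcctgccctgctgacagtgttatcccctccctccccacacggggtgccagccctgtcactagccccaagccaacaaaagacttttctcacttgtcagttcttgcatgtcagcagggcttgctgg
Pde4b: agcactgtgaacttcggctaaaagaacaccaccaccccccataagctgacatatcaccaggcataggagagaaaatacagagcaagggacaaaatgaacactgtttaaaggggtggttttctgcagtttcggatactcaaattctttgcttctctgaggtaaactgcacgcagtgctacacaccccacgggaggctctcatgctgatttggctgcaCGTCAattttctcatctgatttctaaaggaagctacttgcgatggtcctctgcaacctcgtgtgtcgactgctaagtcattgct

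Over the 21 windows of the members the full element matched in 0, its half-site in 4 and the nuclear receptor half-site in 2, and over 32851 promoters of all genes they matched in 1.79%, 20.8% and 16.3%. A match is letters in a window and not a site that was shown to be bound.

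Among the genes around the phosphodiesterases, limma called some lower and some higher, where it called 17.5% of all genes tested lower and 11% higher. None of those calls passed with the GC trend subtracted. Of the other phosphodiesterases 7 of 13 had values high enough for limma, and 1 fell, *Pde7b*, at an adjusted p of 0.0499. Its ratios of 0.534 and 0.56 at 2 and 6 months became 1.13 and 1.36 with the GC trend subtracted. *Pde8a*, a high-affinity cAMP enzyme with the highest level per kilobase among them, was at 844.5 and 709.7 in controls and at 531.4 and 862.5 in csPIMT-/- hearts, so the genotypes overlapped. The PDE6 subunits of the retina were low in every library, at 0 to 1.76 for *Pde6a*, *Pde6b* and *Pde6c*, 5.20 to 11.1 for *Pde6g* and 0.865 to 6.17 for *Pde6h*.

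Of 9 adenylyl cyclases tested, the enzymes that make cAMP, 1 rose, *Adcy7*, by 0.90 on the log2 scale (SE 0.203, adjusted p = 0.0344 in limma), and none fell. *Adcy6*, a main cardiac form and the one with the highest level per kilobase, was at 14010.9 and 12430.6 in controls and at 12726.2 and 11603.1 in csPIMT-/- hearts, with ratios of 0.908 (0.886 to 0.931) and 0.933 (0.91 to 0.957). With the GC trend subtracted the ratios at 2 and 6 months were 1.46 and 1.45 for *Adcy7* and 0.601 and 0.609 for *Adcy6*. Of 6 guanylyl cyclases tested, 1 fell, *Gucy1a2*, which encodes a subunit of the receptor for nitric oxide. It was at 1252.1 and 1603.3 in controls and at 383.4 and 577.4 in csPIMT-/- hearts, with ratios of 0.306 (0.27 to 0.346) and 0.36 (0.327 to 0.396). With a transcript GC content of 38% these became 0.938 and 1.15 when the GC trend was subtracted. *Npr2*, the receptor for C-type natriuretic peptide, was at 2497.2 and 2478.4 in controls and at 3362.2 and 3250.1 in csPIMT-/- hearts. It did not pass limma (adjusted p = 0.176), and its ratios with the GC trend subtracted were 0.908 and 0.868.

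Of 13 effectors of cyclic nucleotides tested, 3 fell and 1 rose. Those that fell in limma were *Prkacb*, a catalytic subunit of protein kinase A, *Prkar2a*, a regulatory subunit that anchoring proteins hold, and *Prkg1*, protein kinase G. With the GC trend subtracted their ratios at 2 and 6 months were 0.76 and 1.04 for *Prkacb*, 0.601 and 0.465 for *Prkar2a*, and 0.954 and 1.3 for *Prkg1*. The effector that rose, *Prkar1b*, a regulatory subunit better known from brain, was at 69.2 and 72.1 in controls and at 240.4 and 209.1 in csPIMT-/- hearts. This was an increase of 1.65 on the log2 scale (SE 0.391, adjusted p = 0.0371 in limma). Its ratios with the GC trend subtracted were 2.25 and 1.86. *Popdc2*, which encodes a cAMP-binding membrane protein of heart and skeletal muscle, was at 23363.0 and 18762.8 in controls and at 38723.4 and 35092.2 in csPIMT-/- hearts (adjusted p = 0.0505 in limma).

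Of 9 partners of phosphodiesterases 2 fell and none rose. One that fell was *Calm2*, a gene of calmodulin, which activates PDE1. It was at 4148.2 and 4511.7 in controls and at 1543.6 and 1502.3 in csPIMT-/- hearts, with ratios of 0.372 (0.349 to 0.396) and 0.333 (0.314 to 0.353). *Calm3*, which encodes the same protein, was at 10143.9 and 8489.6 in controls and at 11220.8 and 14350.7 in csPIMT-/- hearts, and did not pass (adjusted p = 0.208 in limma). With the GC trend subtracted the ratios of *Calm2* were 0.745 and 0.764 at 2 and 6 months, and those of *Calm3* 0.677 and 1.02. *Calm3* and the *Pde6* genes were named after their values were seen. *Pde4dip*, myomegalin, which anchors PDE4, had the highest level per kilobase of its list. It was at 82053.6 and 69906.4 in controls and at 52603.6 and 83349.1 in csPIMT-/- hearts, so its csPIMT-/- libraries lay on either side of the controls.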

How the data were processed

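Heart RNA was enriched with oligo-dT and made into directional TruSeq libraries, read as single-end 50-base reads. The authors checked reads with FastQC, trimmed them, removed ribosomal reads, aligned with STAR to mm10, counted per gene with htseq-count (HTSeq 0.6.1p1 in the submitters' processing notes) on a UCSC annotation and used DESeq2. Other versions and the strand setting are not given in the sources used here. The deposited signal is 1 normalized count per gene symbol. The 6-month csPIMT-/- column is headed as read counts but holds normalized values like the others. In each library 100% of values were whole multiples, within 0.001, of the smallest value above 0, and dividing by it gave reads.

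Ratios were taken on the deposited scale for genes with at least 10 reads in 1 library of the pair, without a test. Their 95% Clopper-Pearson intervals came from the reads and cover counting error only, since there is 1 pooled library per group. The reads carry no molecular identifiers, so copies of 1 molecule could not be told from separate molecules. Calls used a 2-fold limit and log2 ratios a pseudocount of 0.5 reads. The GC trend was a lowess curve (span 0.3) on the GC content of the longest GENCODE M21 transcript, matched by symbol, and for limma it was taken in each library. limma 3.58.1 (R 4.3.3) was run on log2(value + 1) for genes at 10 or more in at least 2 libraries, with a prior of 4.01 degrees of freedom, at an adjusted p of 0.05. edgeR 4.0.16 and DESeq2 1.42.0 on recovered reads, other pseudocounts, filters, scalings, controls and left-out libraries were alternatives. Without a batch or date in the labels, no comparison within a batch was made.

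The members and lists were chosen with earlier results of these data known. Named were all 10 members and, in each of the 5 pathway lists, the genes at 100 or more in 1 library that were past 2-fold in 1 direction at both ages, together with the gene of the highest level per kilobase. Genes that passed limma are named beside their count, and 1 gene under these rules is not reported here.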

Additional observations from a re-analysis of the deposited data

Results flagged for a closer look

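Among the 10 members and the 54 genes of the 5 pathway lists, 6 genes with a normalized count of at least 100 in 1 library lay on opposite sides of the control at the 2 ages, with the whole counting interval past 1 at each. Marker genes were not searched. The share of all genes that meet this rule was not counted, so the number found does not set these lists apart. The difference between the ages was not tested, since there is 1 library per group. Of the phosphodiesterases followed here this was *Pde4a*, at a ratio of 1.6 at 2 months and 0.797 at 6 months, which became 1 and 0.491 with the GC trend subtracted. Of the other genes it was *Pde8a*, at 0.629 and 1.22, though against the 2-month control its 6-month ratio was 1.02 (0.93 to 1.12), and *Adcy1*, a calmodulin-stimulated adenylyl cyclase, at 2.02 and 0.176. *Adcy1* was at 438.7 and 1118.7 in controls and at 885.2 and 196.6 in csPIMT-/- hearts, so that its 2 controls also differed, and against the control of the other age its ratios were 0.791 and 0.448. *Prkar2b*, a regulatory subunit of protein kinase A, had ratios of 1.58 and 0.213, and was at 164.4 and 258.6 in controls and at 260.1 and 55.1 in csPIMT-/- hearts. Against the control of the other age its ratios were 1.01 and 0.335. *Prkar1a*, another regulatory subunit, had ratios of 0.929 and 1.16, and *Pde4dip* of 0.641 and 1.19. These were 1.4 and 1.86, and 0.44 and 0.798, with the GC trend subtracted, no longer on opposite sides.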

How the results depend on the processing

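All 20 ratios of the members stayed within their counting intervals under TMM scaling, other read minimums and, chosen after seeing the data, size factors of the 2 libraries alone. Against the control of the other age 11 moved past their interval, and the median at 6 months was 0.594. With the GC trend subtracted 18 moved. Then 1 member was more than 2-fold lower at 2 months and 5 were below 1, and the medians were 0.899 and 0.807. Counted anew, where GC content was known, 1598 and 1824 genes were then more than 2-fold lower at 2 and 6 months, against 3405 and 3794 of all genes compared without it. More than 2-fold higher at 2 months were 1724 genes with at least 100 reads and 1687 by the whole interval, against 2616, and 1686 by the whole interval at 6 months, against 2579.

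In limma, 4 members and 2714, 2774 and 2706 of all genes fell without a filter on low values, with TMM scaling and without the age term, against 2 and 2595, and 0 members fell without the mean trend or with the GC trend subtracted. In both of the latter 0 genes of the whole table fell and 0 rose. With the GC trend subtracted 6 differences changed sign, to 0.61 for *Pde1a*, -0.21 for *Pde2a*, 0.36 for *Pde3a*, 0.51 for *Pde3b*, -0.51 for *Pde4a* and 0.22 for *Pde7a*. With 1 library left out at a time, fitted by genotype alone with the lone library assumed to vary like the pair, 1 to 3 members fell, 366 to 1882 genes fell and 274 to 1082 rose, against 2595 and 1637. The lowest of these counts of rises came without the 2-month control, and of falls (366, with 363 rises) without the 6-month control. The log2 difference of *Pde4a* ranged from -0.28 without the 2-month csPIMT-/- library to 0.63. *Pde5a* had an adjusted p of 0.0362 without that library and of 0.118, at a log2 difference of -0.77, without the 6-month csPIMT-/- library. By merged exon length *Pde1c* ranked 6 and 7 in csPIMT-/- hearts of 2 and 6 months. Except for the constructions named, the cause of these shifts was not tested. With 1 pool per group and age, replicate error at an age is unknown, and a difference between the ages cannot be tested.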
